A study of Mus musculus with 2 samples.

Results

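The regions described here are the 500 open chromatin peaks whose cut counts were most strongly weighted towards mesonephric mesenchyme nuclei in the E14.5 testis of the mouse, out of 65844 eligible peaks and 109215 peaks in all. The study profiled the fetal testis by 10x multiome, in which RNA and open chromatin (ATAC, a transposase that cuts accessible DNA) are read from the same nucleus. There was 1 RNA library and 1 ATAC library, both from the same nuclei of whole testes of embryos carrying *Nr5a1-cre* and *Rosa-tdTomato*, alleles that every nucleus here shares. The number of embryos behind the library was not stated. With 1 library per assay and no replicate, no test between animals was possible. Intervals are exact 95% intervals, which cover counting error only, and those of cuts are too narrow even for that because both ends of a fragment are mostly counted in the same peak.

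Of the 9833 barcodes in the matrix, 7492 were kept as nuclei, each with 2000 to 50000 RNA molecules (UMIs), under 10% mitochondrial UMIs and over 500 cuts in peaks. The mesenchyme group was the 350 nuclei with the highest share of UMIs from 7 signature genes, *Ntrk3*, *Rxfp2*, *Itga8*, *Osr1*, *Meox1*, *Zfp804a* and *Col8a1*, and the other 7142 nuclei were the rest. Cuts were summed per group and divided by the group total to give counts per 1000000 (CPM), from 1199902 cuts in the mesenchyme group and 27326442 in the rest. Among peaks on chromosomes 1 to 19 with 100 or more cuts over both groups, the 500 with the largest ratio are the members. The ratio is mesenchyme over rest with 1 CPM added to each. They are 0.759% of eligible peaks by construction, so their ratios of cuts are a description and not a result.

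The mesonephros is the embryonic kidney that lies beside the gonad, and its mesenchyme borders the testis and contributes to the tissue around the forming ducts. Regulatory DNA such as promoters and enhancers is freed of nucleosomes when transcription factors bind it, and the transposase then cuts it more often. HOX proteins pattern the body axis and bind DNA together with the TALE homeodomain cofactors PBX and MEIS, so their joint sites are usual in the regulatory DNA of trunk mesenchyme.

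The label was checked against the RNA of the nuclei. The signature genes took 2881 CPM in the mesenchyme group and 81.1 CPM in the rest, but the rule used them, and *Meox1* had only 3 UMIs in the group. Clusters made from RNA alone placed 281 of the 350 nuclei in 1 cluster of 384 nuclei, called mesonephric mesenchyme-like from the signature, which *Rxfp2*, *Ntrk3*, *Zfp804a*, *Ebf2*, *Nxph1* and *Col8a1* led. A further 42 nuclei fell in the contractile-like class. In the group, the summed marker level of contractile cells was 1.47 times that of the rest (2 of 4 genes 2-fold or more higher), and that of pericytes 1.21 times (2 of 6). Sums of Leydig, Sertoli, germ, surface epithelium, endothelial, immune, erythroid, neural, duct epithelium and supporting-like markers were all lower in the group, between 0.104 and 0.709 times the rest, with none of these genes 2-fold higher. The sum of interstitial progenitor markers was 0.966 times the rest, with 3 of 6 genes higher and none by 2-fold. The part of the contractile-like nuclei in the choice of members was not tested, beyond the values without them given below. The threshold cut a continuous score, with 0.1289% signature UMIs at rank 350 against 0.1286% at rank 351, and 67 nuclei lay within 10% of it.

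The sequences below are the central 300 bases of 5 members, picked because they hold the HOX-PBX letters, the motif with the largest excess in members, which most members do not hold. All are plus strand sequence of GRCm38 (mm10), 5′ to 3′. Capitals mark matches on either strand to the HOX-PBX letters TGATNNAT, the posterior HOX letters TTTATNG and the MEIS letters CTGTCA. The first 2 rank second and ninth by ratio. The others are the members that have *Rxfp2*, *Osr1* and *Meis1* as the nearest coding gene, at 149912, 327286 and 302531 bases from their starts. Their nearest starts of any gene are those of *Gm43450*, *Gm48790* and *Gm12023*, at 2646, 172208 and 5082 bases. In the labels, near names the nearest coding gene at whatever distance, and a link to that gene was not tested.
Member near Lonrf1, chr8:36326559-36326858, intergenic: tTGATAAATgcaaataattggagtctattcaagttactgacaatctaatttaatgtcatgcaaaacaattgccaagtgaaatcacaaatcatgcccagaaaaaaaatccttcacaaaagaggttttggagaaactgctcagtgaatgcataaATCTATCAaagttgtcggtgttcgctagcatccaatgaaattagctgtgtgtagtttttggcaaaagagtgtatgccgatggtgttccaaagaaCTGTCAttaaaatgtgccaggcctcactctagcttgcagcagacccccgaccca
Member near Them7, chr2:105186806-105187105, intergenic: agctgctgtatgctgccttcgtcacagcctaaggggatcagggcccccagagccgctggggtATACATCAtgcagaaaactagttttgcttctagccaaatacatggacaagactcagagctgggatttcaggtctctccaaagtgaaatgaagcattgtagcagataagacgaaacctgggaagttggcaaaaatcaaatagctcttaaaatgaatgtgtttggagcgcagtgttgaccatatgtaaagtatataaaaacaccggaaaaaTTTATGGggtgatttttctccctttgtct
Member near Rxfp2, chr5:149868185-149868484, intergenic: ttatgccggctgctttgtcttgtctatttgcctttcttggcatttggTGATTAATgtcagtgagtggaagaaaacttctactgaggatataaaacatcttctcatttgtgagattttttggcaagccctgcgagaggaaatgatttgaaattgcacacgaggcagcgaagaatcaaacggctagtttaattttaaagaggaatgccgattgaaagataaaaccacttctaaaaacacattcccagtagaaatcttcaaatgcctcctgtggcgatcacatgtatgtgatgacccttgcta
Member near Osr1, chr12:9902077-9902376, intergenic: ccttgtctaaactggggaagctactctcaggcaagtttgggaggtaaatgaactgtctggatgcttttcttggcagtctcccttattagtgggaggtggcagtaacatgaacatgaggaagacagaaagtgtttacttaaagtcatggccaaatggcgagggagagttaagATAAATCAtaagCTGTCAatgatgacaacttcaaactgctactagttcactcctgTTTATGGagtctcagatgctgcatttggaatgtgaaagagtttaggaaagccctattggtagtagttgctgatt
Member near Meis1, chr11:18715594-18715893, intergenic: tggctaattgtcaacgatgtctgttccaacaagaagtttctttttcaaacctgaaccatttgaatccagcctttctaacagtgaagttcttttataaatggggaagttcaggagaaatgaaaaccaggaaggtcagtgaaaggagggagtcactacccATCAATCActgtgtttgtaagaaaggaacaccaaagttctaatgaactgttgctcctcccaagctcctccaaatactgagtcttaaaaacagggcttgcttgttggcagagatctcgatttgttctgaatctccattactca
The member near *Osr1* holds all 3 kinds of match, with the HOX-PBX letters and the MEIS letters a few bases apart near its centre. The member near *Lonrf1* holds a pair of HOX-PBX matches and a MEIS match.

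Member peaks were rarely cut in any 1 nucleus. They held 17 to 93 cuts each in the mesenchyme group (median 28) and 57 to 466 in the rest (median 112), which is a median of 23.3 CPM against 4.10 CPM. A median of 14 of the 350 mesenchyme nuclei (4%) had a cut in a given member, against 0.812% of the rest. The rule's ratio ran from 3.72 to 13.1 with a median of 4.36, where the other eligible peaks had a median of 0.913. A ratio of 2 or more was reached by 4319 eligible peaks (6.56%), the members among them. At the threshold, the last 3 members had ratios of 3.727, 3.725 and 3.722, and the first 3 peaks left out had 3.720, 3.719 and 3.716. No member rested on 1 nucleus, the largest share of a member's mesenchyme cuts from 1 nucleus being 30.8% and the median share 9.45%. Cuts in at least 1 member were found in 349 of the 350 nuclei, with a median of 20 members per nucleus against 3 in the rest.

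The member with the largest ratio, chr11:9821229-9822236, had 48 cuts in the mesenchyme group and 58 in the rest, and lies in a gene-poor stretch 629287 bases from *Abca13*. It was followed by chr8:36326206-36327211, with 44 against 57 cuts, 76690 bases from *Lonrf1*. The third, chr13:6504604-6505628, had 66 against 99 cuts and lies 42521 bases from *Pitrm1*, a mitochondrial peptidase gene. The rest of the first 10 lie in introns of *Gm41311*, *Arhgap31*, *Sugct* and *Phactr2*, or between genes, nearest to *Gm12022*, *Gm31450* and *Them7*. All 10 had 40 to 66 cuts from 20 to 31 mesenchyme nuclei and 57 to 117 cuts in the rest. None of the 10 lies at a gene start. The member with the most mesenchyme cuts of all, chr2:12023264-12024113 (rank 17), had 93 from 45 nuclei, against 230 from 122 nuclei of the rest.

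The deposited fragments hold the same reads as intervals. Members held 8128 fragments of the mesenchyme group and 34630 of the rest, which relative to each group's total was 5.45 times as many, while the other eligible peaks stood at 1.01. Cuts gathered around the centres of members in both groups, as plotted by distance from the peak centre. Fragments shorter than the DNA around a nucleosome made up 66.6% of those at members in the mesenchyme group (65.5% to 67.6%), about as at other eligible peaks (66.7%). In the rest the share at members was lower, 61.2% (60.6% to 61.7%) against 66.0% at other peaks.

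**Figure D1:**
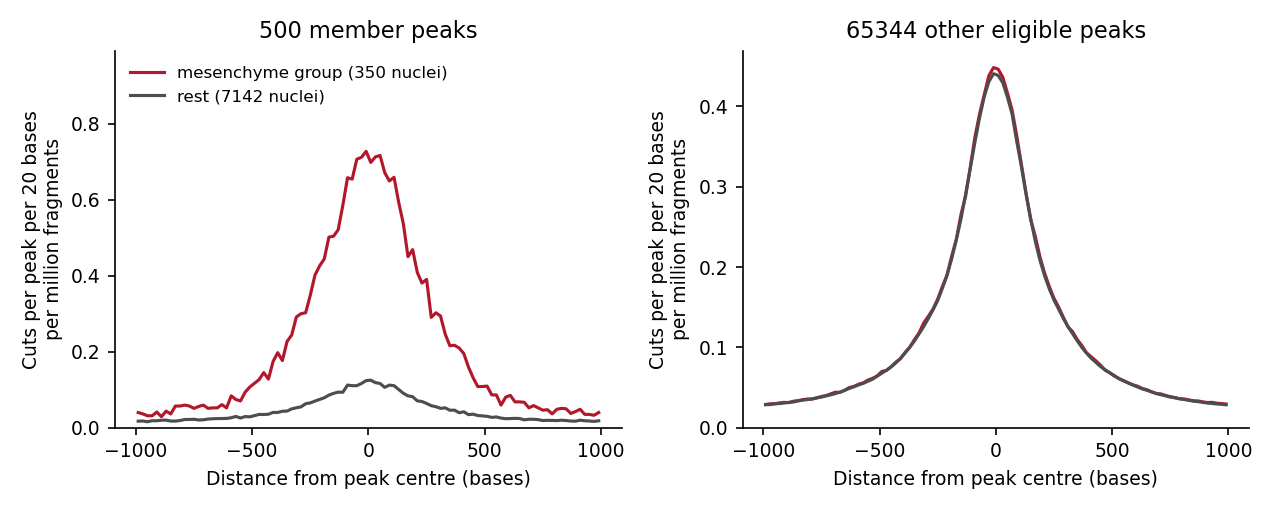
Transposase cuts per peak in bins of 20 bases, per 1000000 fragments of the group, by distance from the peak centre, for the 500 members (left) and the 65344 other eligible peaks (right) in the mesenchyme group (350 nuclei) and the rest (7142 nuclei). At members the mesenchyme line stands far above the rest, by the rule's choice, and both lines peak at the centre, whereas at the other peaks the lines nearly coincide (the y axes differ in scale).

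Across classes of nuclei clustered on RNA alone, which used no peak count, members took 12248 CPM of the cuts in the mesonephric mesenchyme-like class (12058 to 12440). Contractile-like nuclei, the smooth muscle-like cells of the testis, came next with 4545 CPM (4473 to 4619), and surface epithelium-like nuclei followed with 3707 CPM (3615 to 3802). Pericyte-like nuclei stood at 3150 CPM (2904 to 3412), a class of only 46 nuclei. Interstitial progenitor-like (2322 CPM), supporting-like (2208), endothelial-like (1951), Leydig-like (1893), Sertoli-like (1699), immune-like (1663) and germ-like nuclei (1596) were lower. Among neighbours in this order from progenitor-like to germ-like, the intervals overlapped for all pairs but Leydig-like and Sertoli-like. Lowest were erythroid-like nuclei (1094 CPM) and an unnamed cluster led by *Lhx1* and *Glt1d1* (749 CPM). The 472 nuclei of this unnamed cluster scored highest for germ markers (2.10, against 1.69 and 1.95 in the germ-like clusters). In peaks chosen in the same way for germ markers, the cluster held 15428 CPM, against 9347 CPM in germ-like nuclei. The germ-like level of 1596 CPM is thus not that of all nuclei with germ markers. The mesenchyme-like level was 2.69 times the contractile-like level, and most of those mesenchyme-like nuclei had chosen the members.

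**Figure D2:**
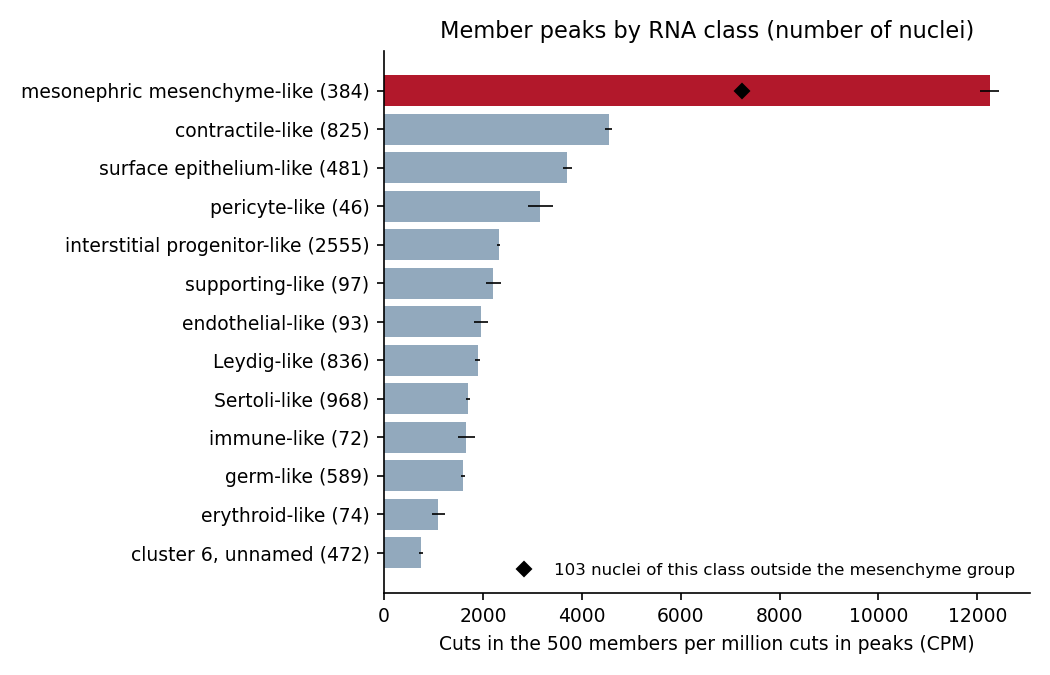
Cuts in the 500 members per 1000000 cuts in peaks for each class of nuclei clustered on RNA, with exact 95% Poisson intervals and the number of nuclei in parentheses. The mesonephric mesenchyme-like class stands at 12248 CPM, its 103 nuclei outside the mesenchyme group (diamond) at 7231 CPM, and contractile-like nuclei at 4545 CPM.

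Those 103 mesenchyme-like nuclei that the rule had counted in the rest gave 7231 CPM (6969 to 7500), above every other class, where the remaining 7039 rest nuclei gave 2282 CPM. The median signature share of these 103 nuclei was 0.0696% of UMIs. Within the mesenchyme group, the 281 mesenchyme-like nuclei stood at 14476 CPM (14228 to 14728), the 42 contractile-like nuclei at 8555 CPM (8079 to 9053) and the 27 nuclei of other classes at 8101 CPM (7670 to 8550). These 27 nuclei had a median of 15913 UMIs and the highest doublet scores, a median of 0.176 against 0.0193 in the 281. Chosen from the 281 nuclei alone, 388 of the 500 members were kept. By single peak, 487 of 500 members were highest in the mesenchyme-like class among the 8 classes of 300 or more nuclei, a description only, since 281 of its 384 nuclei had chosen the peaks. With all nuclei of the mesenchyme group left out, 311 members (62.2%, 57.8% to 66.5%) were highest in the remaining 103 mesenchyme-like nuclei, against 19.5% of the other eligible peaks. All nuclei compared there belonged to the rest, where the rule favoured low counts (median 4.10 CPM in members, 6.99 CPM in other eligible peaks). The 19.5% is therefore not a like background, and this count too is a description only. The choice bore on the 7231 CPM and 2282 CPM above in the same way. With the group included, the next highest class was contractile-like for 259 members, surface epithelium-like for 140 and progenitor-like for 50. Only 289 members were 2-fold or more above their next class, and the median was 2.21.

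Nuclei ranked 1 to 100 by signature share stood at 15120 CPM in members and those ranked 201 to 350 at 11278 CPM, but these nuclei chose the members, so their level and the step at the threshold are set by the rule. Among nuclei that the rule had counted in the rest, those ranked 351 to 500, just outside the group, stood at 5676 CPM (5503 to 5853). Ranks 501 to 1000 gave 3794 CPM and ranks above 2000 gave 2007 CPM. In the band of ranks 351 to 500, 49 of 150 nuclei were mesenchyme-like by RNA.

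Barcodes that the rule had dropped were not used by the rule, although they came from the same library. Of 1143 barcodes that failed the UMI or mitochondrial limits but had over 500 cuts in peaks, the 53 with the highest signature share (the same proportion as in the rule) held 5409 CPM in members and the others 2491 CPM. The ratio was 2.17 (2.05 to 2.29), and 65.4% of members were higher in the 53 barcodes, against 42.9% of the other eligible peaks, whose summed ratio was 0.995. Of 3 sets of 500 peaks chosen in the same way for other signatures, that of surface epithelium gave 1.18, germ 1.34 and Sertoli 0.544. Most of the dropped barcodes (853) had 10% or more mitochondrial UMIs, and the lowest share among the 53 was 0.0474%, below the 0.1289% of the rule's threshold.

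Members lay far from gene starts. Only 14 (2.80%, 1.54% to 4.65%) lay within 1 kb of the nearest start of any gene, against 23.3% of the other eligible peaks. Over 50 kb away were 42.2% of members (37.8% to 46.7%) and 21.2% of the others, and the median distance was 38296 bases against 13450.5. Peak centres were intergenic in 53.0% and in introns in 43.8% of members, against 40.8% and 41.0%. The peaks chosen alike were within 1 kb of a start in 4.4% (surface epithelium), 5.20% (Sertoli) and 19.8% (germ) of cases, so few starts were common to the somatic sets. Their share over 50 kb was 34.4%, 20.2% and 18.8%, with the interval of the members (37.8% to 46.7%) above that of Sertoli (16.8% to 24.0%) and overlapping that of surface epithelium (30.2% to 38.7%). The central 300 bases had a median GC content of 46.3% in members and 52.3% in the other peaks, and of 50.3%, 50% and 53.7% in the sets for surface epithelium, Sertoli and germ. They held a median of 3 CpG against 6.

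Within 250 kb of the bodies of the 7 signature genes, whose RNA chose the nuclei, lay 5 members among 151 eligible peaks (3.31%, 1.08% to 7.56%), beside 0.759% of all eligible peaks. None of the 7 was the nearest gene start to a member. *Ntrk3*, the receptor of neurotrophin-3, holds 1 member in an intron, chr7:78264290-78265140, with 28 cuts in 14 mesenchyme nuclei against 106 in the rest. *Rxfp2*, the receptor of the testis hormone INSL3 that acts in gubernaculum development, has 1 member 149912 bases from its start, with 32 against 128 cuts. *Osr1*, a zinc finger factor of the intermediate mesoderm, has 1 member 327286 bases away, with 28 against 132 cuts. *Itga8*, an integrin subunit needed for kidney development, lies on the minus strand at chr2:12106632-12301922, and 3 members stand in a 20.09 kb stretch beyond its 3′ end. The closest of them, the member of rank 17 with 93 mesenchyme cuts, is 82518 bases from the gene's end, although the nearest start to all 3 is that of *Ankrd16*, 225533 to 244773 bases away on the other side. This view by gene body was chosen after the values were seen. *Zfp804a*, *Col8a1* and *Meox1* have no member within 250 kb, and the highest peak with *Meox1* as its nearest coding gene (ratio 3.71, rank 505) fell just below the threshold.

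Genes nearest to members were more often high in the RNA of the mesenchyme group, which the choice of peaks had not used beyond the signature genes. The 500 members had 464 nearest genes, and 228 of these had 100 or more UMIs over both groups. A gene with fewer UMIs in the rest could thus pass through the mesenchyme group, here and in the backgrounds. Of the 228, 70 (30.7%, 24.8% to 37.1%) were 2-fold or more higher in the mesenchyme group on the CPM + 1 scale, where the same held for 3.85% of the genes nearest to any eligible peak and for 3.65% of all 15277 genes with enough UMIs. The lower side held 20 genes (8.77%) against 13.1% of genes nearest to eligible peaks. The median ratio was 1.18 for genes nearest to members and 0.856 for those nearest to the other eligible peaks. RNA and cuts came from the same nuclei, so this is an association within these nuclei and not a replicate. In the peaks chosen alike, the share of nearest genes higher in the mesenchyme group was 9.60% for surface epithelium, 2.64% for Sertoli and 4.21% for germ. With the nearest coding gene in place of the nearest gene, it was 26.4% (94 of 356 genes) for members.

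**Figure D3:**
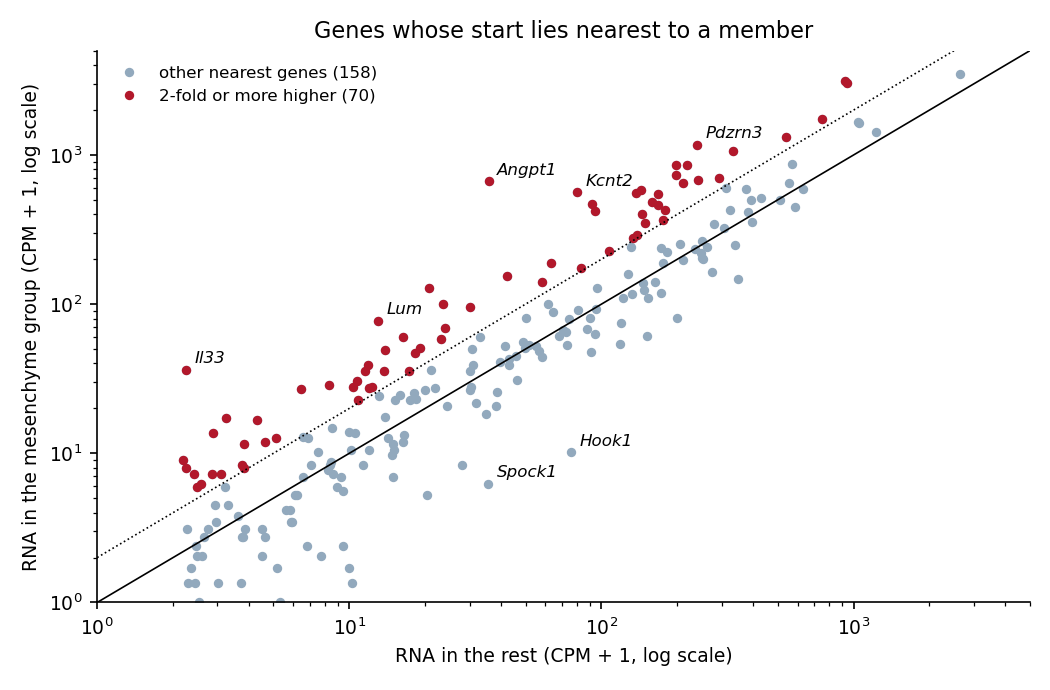
RNA of the 228 genes with 100 or more UMIs whose start lies nearest to a member, as CPM + 1 in the rest (x axis, log scale) and in the mesenchyme group (y axis, log scale), with equality as a solid line and 2-fold as a dotted line. The 70 genes at or above 2-fold are in red, *Angpt1* and *Il33* farthest from the line, while *Hook1* and *Spock1* lie below it.

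The association did not rest on members at promoters. At distances of 50 to 200 kb, 33 of 88 nearest genes (37.5%, 27.4% to 48.5%) were higher, against 8.14% for the other eligible peaks at the same distance. At 10 to 50 kb the shares were 27.8% and 4.53%. At 1 to 10 kb they were 3 of 21 genes (14.3%, 3.05% to 36.3%) and 4.57%, not distinguishable at these numbers. Nor were they distinguishable beyond 200 kb, at 19.0% (5.45% to 41.9%) and 14.1%. Conversely, of 536 autosomal genes that were 2-fold or more higher, 70 (13.1%) had a member nearest to them, beside 228 of all 14721 autosomal genes with enough UMIs (1.55%). Measured to gene bodies instead of starts, 16.6% of members (13.4% to 20.2%) overlapped the body of one of the 557 genes that were 2-fold or more higher, against 4.08% of the other eligible peaks.

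The largest RNA ratios among these genes belonged to *Angpt1* and *Il33*. *Angpt1*, the angiopoietin ligand of the endothelial receptor TIE2, stood at 668 CPM in the mesenchyme group and 34.8 CPM in the rest (ratio 19.2, 18.1 to 20.4), and its member lies 17182 bases from its start, with 26 cuts against 112. By class it was at 708 CPM in mesenchyme-like, 404 CPM in pericyte-like and 90.9 CPM in contractile-like nuclei. *Il33*, which encodes the alarmin interleukin-33, had 35.5 against 1.25 CPM (101 and 95 UMIs, ratio 28.5, 21.3 to 38.1), and 2 members, one in an intron 1021 bases from its start (25 against 120 cuts) and one 21784 bases away (26 against 126 cuts). *Il33* and *Angpt1* were also among the leading genes of the mesenchyme-like RNA cluster.

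*Kcnt2*, a sodium-activated potassium channel gene, had 566 against 79.1 CPM (ratio 7.15, 6.76 to 7.56) and 2 members in its introns, the first with 33 cuts against 103 and the second with 18 against 87. It was as high in pericyte-like nuclei (602 CPM) as in mesenchyme-like nuclei (643 CPM). *Lum*, which encodes the collagen-binding proteoglycan lumican, had 76.5 against 12.0 CPM, and its member covers the start of the gene itself, with 31 against 158 cuts. *Cyp7b1*, an oxysterol hydroxylase gene, had 468 against 91.05 CPM, and *Pdzrn3*, a ubiquitin ligase gene, 1172 against 239 CPM, with members 25483 and 68176 bases from their starts. *Dcc*, the netrin receptor gene, had 418 against 93.1 CPM, but its level was higher in surface epithelium-like (558 CPM) and pericyte-like nuclei (693 CPM) than in mesenchyme-like nuclei (372 CPM). *Gm6213* (128 against 19.7 CPM) and *Gbgt1* (16.1 against 2.23 CPM) had a member at their start. *Gm26911* (12.6 against 1.88 CPM) is annotated as antisense within *Pdzrn3*, and whether the counting kept the strands apart was not stated.

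Of the 14 members within 1 kb of a start, 6 had a nearest gene with enough UMIs, and 4 of these (66.7%, 22.3% to 95.7%) were 2-fold or more higher, beside 3.70% for the other eligible peaks within 1 kb. They were *Gm6213*, *Lum*, *Gbgt1* and *Enpep*, a membrane aminopeptidase gene with 189 against 61.9 CPM. Also with enough UMIs, *Map3k7cl* (4.91 against 2.20 CPM, ratio 1.85) stayed below 2-fold, and *Gm50143* was lower (0.351 against 2.02 CPM, ratio 0.447). The remaining genes had hardly any RNA, such as *Sp6*, with 0 UMIs in the mesenchyme group and 29 in the rest. Among genes with 100 or more UMIs, 7 of 13 with 2 members (53.8%, 25.1% to 80.8%) and 63 of 214 with 1 member (29.4%, 23.4% to 36.0%) were 2-fold or more higher, with overlapping intervals, while the 1 gene with 3 members was not (ratio 0.909). *Gm16118* had 4 members, all in introns of *Wwox*, and only 2 mesenchyme UMIs. *Ankrd16*, *6030471H07Rik* and *4930405L22Rik* had 3 each, and 27 genes had 2, among them *Phactr2* (485 against 158 CPM), *Plxna2* (226 against 106 CPM), *Kcnt2*, *Rpl29*, *Gm43507* and *Ttc32*. *Phactr2*, *Plxna2* and *Kcnt2*, like *Il33* above, were among the 7.

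Some members lay nearest to genes that were lower in the mesenchyme group. *Hook1*, which encodes a microtubule-binding adaptor, had 9.13 against 74.7 CPM, and *Spock1*, a testican proteoglycan gene, 5.27 against 34.5 CPM, with the member in one of its own introns (32 against 146 cuts). The noncoding genes *9330185C12Rik* (1 UMI against 706), *A230004M16Rik* (2 against 684) and *Gm28807* (0 against 329) were lower as well.

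Among 66 transcription factor genes chosen as relevant to mesenchyme, 55 had 100 or more UMIs, and 18 of these were 2-fold or more higher in the mesenchyme group and 4 lower, beside 3.65% and 13.6% of all genes tested. The list was drawn up with earlier results of these data known, so its excess over all genes is a description and not a result. *Zfp804a* and *Osr1* belong to the signature and were bound to be higher. Of the others, *Ebf2*, an early B-cell factor, stood at 83.5 against 3.33 CPM (238 and 254 UMIs) and *Foxp2*, a forkhead repressor, at 919 against 143 CPM. The TALE cofactors *Meis2* (2542 against 537 CPM, ratio 4.73, 4.62 to 4.85) and *Meis1* (2370 against 577 CPM) were higher, while *Pbx3* stood at 630 against 846 CPM. Among posterior *Hox* genes, *Hoxa9* (18.3 against 3.42 CPM), *Hoxa10* (4.56 against 1.39) and *Hoxc10* (5.62 against 1.89) passed 2-fold on the CPM + 1 scale, with 52, 13 and 16 UMIs in the group. *Hoxc9* (7.72 against 3.63), *Hoxd9* (19.0 against 21.7), *Hoxd10* (8.07 against 8.16) and *Hoxd11* (11.6 against 8.81) did not. No gene among the 18 was the nearest start to a member. By nearest coding gene, among others, single members lay nearest to *Twist2*, *Meis1*, *Osr1*, *Tead1*, *Esr1* and *Zeb2*, and 2 each to *Nr2f2* and *Nfib*, those of *Nfib* in its introns.

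Members differed from other peaks in the letters of their sequence, which the rule had not used. Of 31 motifs searched on both strands of the central 300 bases, 21 were present in 5% or more of members or of the other eligible peaks. The HOX-PBX letters TGATNNAT had the largest excess, in 119 members (23.8%, 20.1% to 27.8%) against 8.54% of the other eligible peaks, 2.79 times the share. The posterior HOX letters TTTATNG followed, in 22.6% (19.0% to 26.5%) against 10.3%. These motifs can overlap, as they did in 1.60% of members and 0.347% of the others, and 40.6% of members held at least 1 of them, against 17.3%. Next came the E-box CATATG (7.40% against 4.13%), the TEAD letters GGAATGT (9.20% against 5.62%) and the SOX letters ATTGTT (14.6% against 9.61%). In the surface epithelium, Sertoli and germ sets, posterior HOX letters were in 16.0%, 8.60% and 8.60%, and CATATG in 3.60%, 3% and 1.60%. TEAD letters were in 15.2%, 6.40% and 2.60% of these sets, and SOX letters in 6.80%, 19.8% and 12.4%. TEAD letters were thus commoner in the surface epithelium set than in members, and SOX letters commoner in the Sertoli set. The MEIS letters CTGTCA were in 27.4% (23.5% to 31.5%) against 18.7%. With members chosen from the RNA cluster nuclei instead, the MEIS share was 21.2% (17.7% to 25.05%), an interval that covers the 18.7%. A match is a description of letters and not a bound site.

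At the other end, the letters of CTCF, the insulator protein, were in 4 members (0.8%, 0.218% to 2.04%) against 8.94% of the other peaks, and in 3% (1.69% to 4.90%) of members chosen at a minimum of 200 cuts. The SP/KLF letters GGGCGGGG (1.40% against 11.8%) and ETS letters CCGGAAG (1% against 5.59%), both usual at promoters, were also rare. In the surface epithelium, Sertoli and germ sets, CTCF letters were in 2%, 3% and 3.80% of peaks. SP/KLF letters were in 2%, 3% and 13.2%, and ETS letters in 0.6%, 1% and 7.60%. Low shares of these letters were therefore common to the somatic sets. The E-box CACCTG, bound by the ZEB repressors, was in 5.60% of members (3.75% to 7.99%) against 16.9% of the others, and in 24.2%, 21.2% and 36.0% of the peaks chosen alike for surface epithelium, Sertoli and germ. The NR5A1 letters TCAAGGTCA were found in 1 member (0.200%), against 2.37% of the other peaks and 7.40% of the Sertoli set. The HOX-PBX letters were in 14.8% of the surface epithelium set, 8% of the Sertoli set and 4.20% of the germ set.

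The lower GC content and the distance from starts moved with these shares. Without peaks within 1 kb of a start, HOX-PBX letters were in 24.1% of members, 2.36 times the share in the other distal peaks. Among peaks of 42% to 50% GC, a comparison added after the data were seen, they were in 20.8% of 260 members and 12.7% of the others, a share ratio of 1.64. In that band the posterior HOX letters stood at 24.6% against 15.3%, MEIS at 28.1% against 20.4%, TEAD at 11.5% against 7.31%, SOX at 16.9% against 14.2%, CATATG at 7.69% against 6.22%, ZEB at 5.77% against 13.7%, CTCF at 1.54% against 10.9%, and ETS at 1.54% against 1.68%. SP/KLF stood at 0.769% against 1.63%. For ETS, SP/KLF, SOX and CATATG the members' interval covered the share of the other peaks, so a difference was not detectable at like GC content. The share ratios of HOX-PBX, posterior HOX, MEIS, ZEB and CTCF were closer to 1 there than over all peaks, in the same direction.

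**Figure D4:**
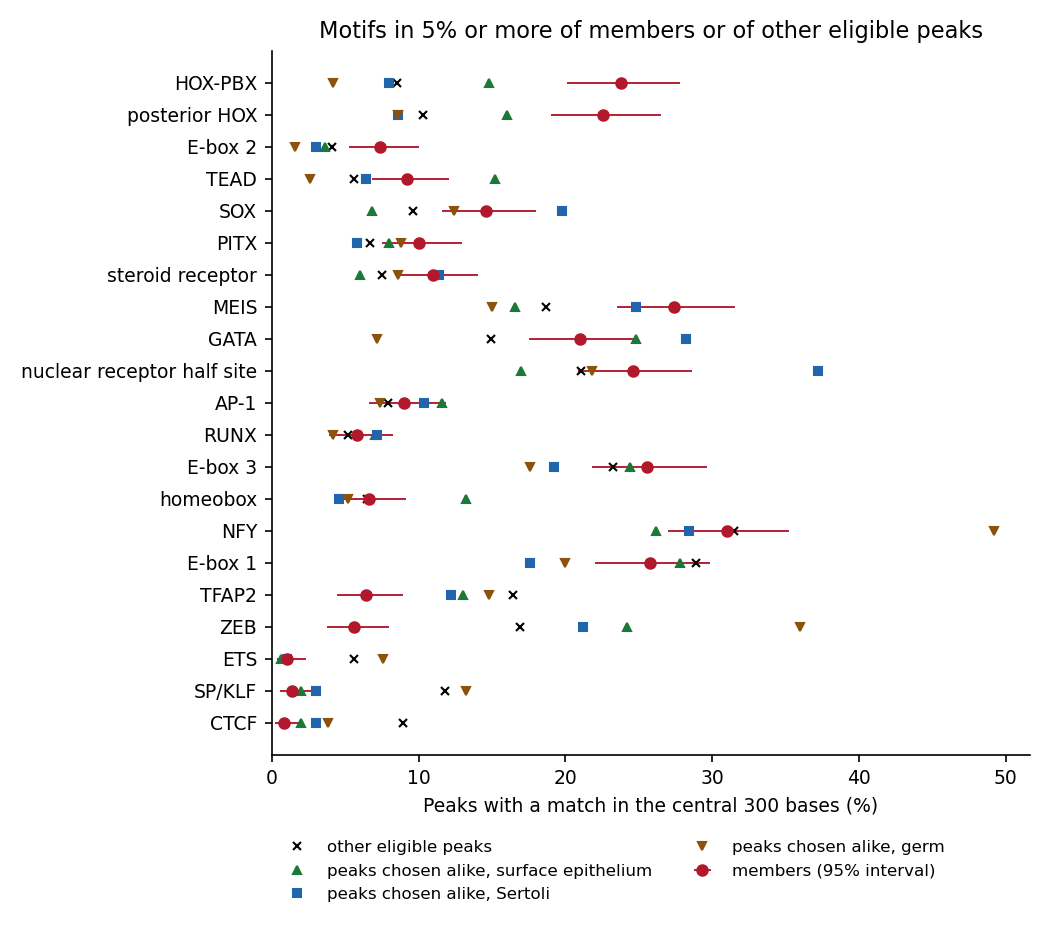
Share of peaks with a motif match on either strand in the central 300 bases, for members (red, exact 95% interval), other eligible peaks (crosses) and the 3 sets of 500 peaks chosen alike, ordered by the ratio of the members' share to that of the other eligible peaks. HOX-PBX (23.8% against 8.54%) stands at the top and CTCF (0.8% against 8.94%) at the bottom; E-box 1 has the letters CAGCTG, E-box 2 has CATATG and E-box 3 has CAGATG.

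These features also differed along the rank of all eligible peaks beyond the threshold. HOX-PBX letters were in 25% of ranks 1 to 100, 28% of ranks 101 to 250, 20.8% of ranks 251 to 500, 20.4% of ranks 501 to 1000, 10.7% of ranks 5001 to 10000 and 6.73% of ranks 20001 to 40000. CTCF letters went from 1% through 1.40% and 7.17% to 9% over ranks 1 to 100, 501 to 1000, 2001 to 5000 and 20001 to 40000, and ZEB letters from 7% to 16.5% over the first and last of these. The MEIS share was 24.0%, 22.7% and 31.6% in ranks 1 to 100, 101 to 250 and 251 to 500, so neither it nor the HOX-PBX share changed steadily among members. The share of nearest genes 2-fold higher in RNA went from 32.0% in ranks 1 to 100 to 19.0% in ranks 501 to 1000 and 3.54% in ranks 20001 to 40000. Peaks within 1 kb of a start were 0 of the first 100, a share of up to 3.62% by the interval, 3.20% of ranks 501 to 1000 and 36.6% of ranks 20001 to 40000.

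**Figure D5:**
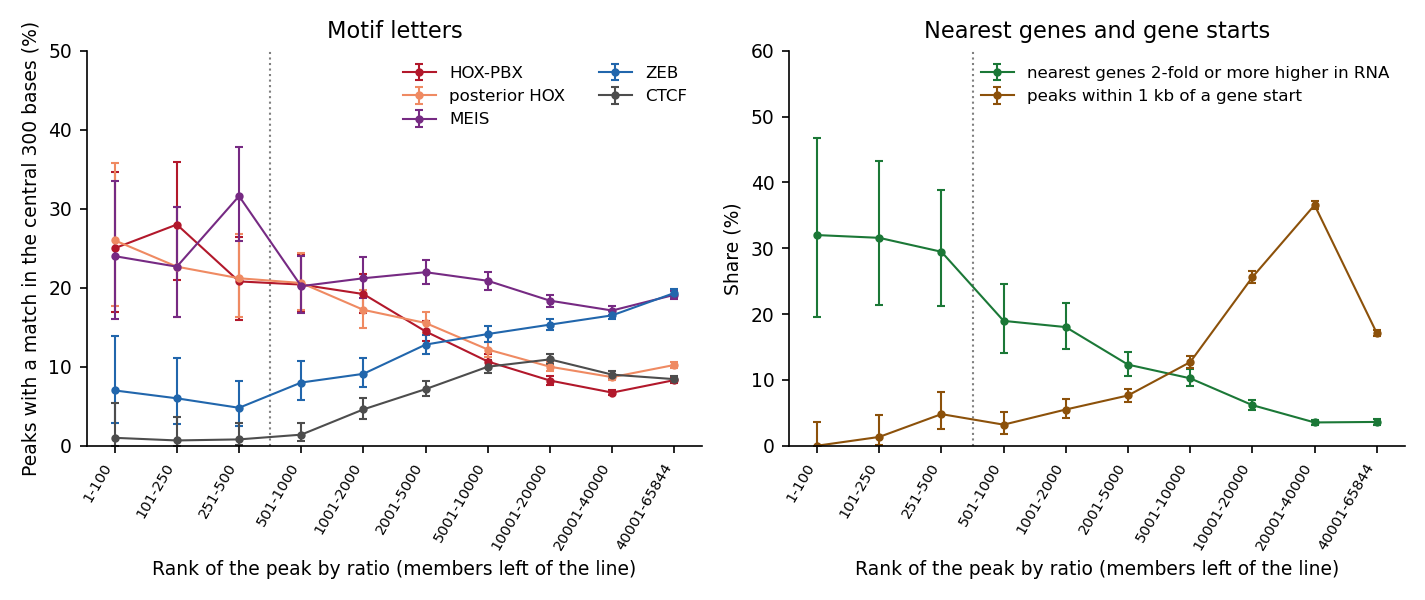
Shares over bins of rank by the rule's ratio among all 65844 eligible peaks, with exact 95% intervals; members lie left of the dotted line. Left, peaks with motif matches in the central 300 bases, where HOX-PBX falls from 25% to under 10% and CTCF rises from 1%. Right, nearest genes that were 2-fold or more higher in the mesenchyme group's RNA, from 32.0% to 3.61% in the last bin, and peaks within 1 kb of a gene start.

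Members were spread over all 19 autosomes, 8 to 53 on each, and mostly stood alone. Another member lay within 50 kb of 47 members (9.40%, 6.99% to 12.3%), compared with 11.4% in the surface epithelium set, 5.60% in the Sertoli set and 6.60% in the germ set. The intervals of the members and of the Sertoli set (3.75% to 7.99%) overlap. The 3 runs of 3 members were the stretch beyond *Itga8*, a stretch of 18.419 kb beside *6030471H07Rik* on chromosome 4, and one of 89.669 kb in *Wwox* on chromosome 8. How many of the members were chosen depended on the minimum number of cuts, with 201 of the 500 kept at a minimum of 50 and 101 at a minimum of 200.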

How the data were processed

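Raw counts were deposited, UMIs for genes and cuts for peaks, which the authors had made with Cell Ranger ARC 2.0.1 and the mm10 (GRCm38) genome. The matrix holds all barcodes called as nuclei, before any removal of doublets or free RNA. The deposited fragment list, with a count of read pairs per fragment, gave cuts that matched the matrix in both groups at 78.7% of eligible peaks. Nuclei, groups and members followed the rule stated above, without doublet removal. Members and gene, marker and motif lists were chosen with earlier results of these data known, and the surface epithelium, Sertoli and germ sets used 350 nuclei and the same peak rule on their own markers.

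RNA classes came from scanpy 1.11.5 (2000 variable genes, 30 components, 20 neighbours, leiden resolution 0.5), named from markers, with doublet scores from Scrublet. Gene starts are those of the deposited feature table, gene bodies and parts those of GENCODE vM21, and sequence that of RefSeq GRCm38. Genes needed 100 UMIs over both groups. Ratios of RNA use 1 CPM added where calls are made, and otherwise plain CPM. Named were the 10 members with the largest ratio, those nearest to signature and listed factor genes, the genes with the most members, and the 10 largest and 5 smallest RNA ratios. Intervals are exact Poisson for levels, Clopper-Pearson for shares and conditional binomial for ratios, at 95%. With no replicate sample, no p-value was derived. The mesenchyme group held 2848674 UMIs and the rest 76243867. The choice of peaks was also run on simulated counts as a check of the code. These counts lacked the pairing of cuts seen here, so the check does not measure how well real peaks were chosen. Alternatives are given in the closing section, 5 of them chosen after seeing the data: the GC band, the nearest coding gene, the gene bodies, the highest class without the mesenchyme group, and the 281 group nuclei of the mesenchyme-like class. Values for some listed genes, and 1 member's sequence, are not reported here.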

Additional observations from a re-analysis of the deposited data

Results flagged for a closer look

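The rule leaves out the X chromosome and peaks with under 100 cuts. Of 1184 X chromosome peaks with 100 or more cuts, 6 (0.507%, 0.186% to 1.10%) had a ratio at or above that of the lowest member, with a highest ratio of 6.5. The autosomal share was 0.759%, within that interval. Of 33757 autosomal peaks with 50 to 99 cuts, 562 (1.66%, 1.53% to 1.81%) had such a ratio, with a highest of 15.6, above the 13.1 of the first member. These peaks are given here because the main choice of members used none of them.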

How the results depend on the processing

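No paired analysis was possible because each assay has 1 library. Of 209 values recomputed under the alternatives, 168 stayed within the 95% interval of the value given above (for shared members, within 1.5 times) and 41 moved. The ratio in dropped barcodes stayed above 1 in all 17 of its alternatives, while that between classes holds the nuclei that chose the members, so its direction says nothing of stability. Members shared with the main choice were 352 to 500 under other groups of nuclei, another pseudocount or counts of nuclei, but 201 at a minimum of 50 cuts and 101 at 200. The mesenchyme-like level over the next class (2.69) moved to 3.85 and 1.83 at those minimums, 2.57 with 500 nuclei, 2.89 with the RNA cluster, 2.81 with the 281 nuclei in both, 2.51 without *Ntrk3*, 2.78 without *Itga8*, 2.49 without high doublet scores, 2.51 at a pseudocount of 5 and 2.31 at a resolution of 1.0. The ratio in dropped barcodes (2.17) moved to 2.81 and 1.68 at the minimums of 50 and 200, 2.03 without *Ntrk3* and 1.80 without *Itga8*. The share of nearest genes higher in RNA (30.7%) moved to 24.7% at 200 cuts, 24.1% at a pseudocount of 5, 39.0% at 1.5-fold and 16.2% at 3-fold, beside 3.85%, 2.54%, 7.94% and 1.57% of genes nearest to eligible peaks. HOX-PBX letters (23.8%) stood at 19.4% at 200 cuts, 17.6% over 200 bases and 35.0% over 500 bases. In the other eligible peaks they were in 5.76% over 200 bases and 14.2% over 500 bases. MEIS letters (27.4%) stood at 21.2% with the RNA cluster, 23.4% with 500 nuclei or at 200 cuts, and 21.4% and 38.4% over 200 and 500 bases. The other eligible peaks held MEIS letters in 12.8% over 200 bases and 29.5% over 500 bases. Posterior HOX letters (22.6%) stood at 18% and CTCF letters (0.8%) at 3% at 200 cuts. Members within 1 kb of a start (2.80%) were 1.20% at 50 cuts, and within 5 kb 10.2%. Members with another nearby (9.40%) were 13.6% without high doublet scores, 12.6% at 50 cuts, 13.4% with the 281 nuclei, 5.60% within 20 kb and 14.6% within 100 kb. Other than where the alternative itself sets the value, the cause was not tested. Depth limits what a single peak can show, since a median member had 28 cuts, mostly in pairs, in the group that chose it.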

Other observations

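The letters between the fixed parts of the HOX-PBX motif were counted after the shares were seen. TGATTTAT was the commonest form, in 36 members (7.20%, 5.09% to 9.83%) against 1.44% of the other eligible peaks, 5.01 times the share. TGATAAAT and TGATGGAT were in 2.80% each, against 0.908% and 0.751%, and TGATTAAT was in 2.40% against 0.744%. The forms TGATCAAT, TGATCCAT and TGATCTAT were in 0.200%, 0.400% and 0.400% of members, against 0.242%, 0.424% and 0.381%. At least 2 HOX-PBX matches were in 4.80% of members and 0.840% of the others. HOX-PBX and MEIS letters stood in the same central 300 bases in 33 members (6.60%, 4.59% to 9.14%) and 1.66% of the others. Whether this is more than the separate shares of both motifs would give was not tested. CTCF matches of the other eligible peaks gathered at the peak centre, with 2.34 matches per 100 peaks in the 50 bases before the centre and 0.349 in the outermost bin, whereas HOX-PBX matches of members were spread over the central 500 bases at 3.6 to 7 matches per 100 peaks and bin.

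The 119 members with HOX-PBX letters and the 381 without had like ratios by the rule (medians 4.49 and 4.32). In the barcodes that the rule had dropped, members with the letters gave a ratio of 2.5 (2.25 to 2.78) and those without gave 2.07 (1.94 to 2.20), and the difference itself was not tested. Nearest genes 2-fold or more higher in RNA were 18 of 65 (27.7%, 17.3% to 40.2%) for members with the letters and 55 of 169 (32.5%, 25.5% to 40.2%) for members without. Median GC content was 44.7% and 46.7%.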
